A study of Mus musculus with 4 samples.

Results

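The Usp17l genes are a small family of deubiquitinases, and their 5 copies in the gene tables, Usp17la, Usp17lb, Usp17lc, Usp17ld and Usp17le, were taken by symbol from 55335 genes. RNA was sequenced from AB2.2 cells, a mouse embryonic stem cell (ESC) line grown on mouse embryonic fibroblast (MEF) feeders. The 2 control libraries came from cells in the ES medium alone, and the 2 lactate libraries from cells kept in 50 mM lactate for 24 h. Both groups shared the medium, which held serum, leukemia inhibitory factor and the inhibitors CHIR99021 and PD0325901. AB2.2 is a single line, and feeder RNA was not separated from ESC RNA in these bulk libraries. No label says that the libraries of a group came from separate cultures, so the p-values measure the spread between these libraries, which may be technical.

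Deubiquitinases remove ubiquitin from proteins and so oppose the ligases that mark them for degradation or for a change of activity. The Usp17l copies belong to the ubiquitin-specific protease (USP) class of cysteine proteases, and they were first described as short-lived transcripts that cytokines induce in blood cells, under the name DUB. RefSeq lists Dub1 as a synonym of Usp17la, Dub1a of Usp17lb, Dub2 of Usp17lc, Dub2a of Usp17ld and Dub3 of Usp17le. In mouse development the family is known for transcripts in cleavage embryos and in the rare ESCs that take on a two-cell-like state, in which Zscan4 genes are also active. The label of cleavage embryos comes from that background. No embryo was sequenced here.

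All 5 copies are annotated as protein-coding genes on mouse chromosome 7 in GENCODE M21 on GRCm38, within olfactory receptor gene clusters. Usp17ld (chr7:103249737-103252505, minus strand) and Usp17lc (chr7:103415072-103419880, plus strand) lie in one group, and Usp17le (chr7:104768049-104777470, minus strand), Usp17lb (chr7:104840257-104842603, minus strand) and Usp17la (chr7:104857009-104862667, plus strand) in another. Nearly all of the coding sequence of each copy lies in 1 exon. In Usp17la, for example, 1550 of the 1578 coding bases are in the third exon and 28 in the second. The coding sequence is 1635 bases in both Usp17lc and Usp17ld, 1626 in Usp17le and 1404 in Usp17lb.

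The copies are alike enough that a read may not tell them apart. The sequences below show bases at which Usp17la, Usp17lb and Usp17le differ from Usp17lc and Usp17ld. This stretch of 90 coding bases of each copy, 5′ to 3′ from GENCODE M21, was picked from the run of 812 bases over which Usp17lc and Usp17ld are identical, as the stretch with the most positions that vary among the copies. It covers coding bases 27 to 116, or 129 to 218 in Usp17le. Capitals mark the bases that differ from Usp17lc.
Usp17la: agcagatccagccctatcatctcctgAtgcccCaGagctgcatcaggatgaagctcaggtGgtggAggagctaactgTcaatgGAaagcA
Usp17lb: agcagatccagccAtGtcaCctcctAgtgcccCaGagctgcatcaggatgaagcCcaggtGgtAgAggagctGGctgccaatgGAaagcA
Usp17lc: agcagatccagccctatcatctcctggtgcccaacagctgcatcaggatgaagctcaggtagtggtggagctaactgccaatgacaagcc
Usp17ld: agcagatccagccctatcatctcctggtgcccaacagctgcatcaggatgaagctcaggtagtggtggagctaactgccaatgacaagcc
Usp17le: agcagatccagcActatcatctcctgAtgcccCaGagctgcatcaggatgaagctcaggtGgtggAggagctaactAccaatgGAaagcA

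Over these 90 bases Usp17la differed from Usp17lc at 9 positions, Usp17le at 10 and Usp17lb at 15. By the choice of the stretch Usp17ld could not differ from Usp17lc, and the variation among the copies was the largest in that run. Over the whole coding sequence Usp17lc and Usp17ld shared 98.4% of 1635 aligned bases, with 26 differences. The other pairs shared from 90.5% (Usp17lb with Usp17le) to 94.4% (Usp17la with Usp17le). Cut into windows of 100 bases, the annotated transcripts of Usp17la had 96.2% of windows that occur in no other transcript, Usp17le 91.8% and Usp17lb 89.7%. The share was 67.7% for Usp17lc and 60.5% for Usp17ld, which had 745 windows in common. With windows of 300 bases, 100% of the windows of Usp17la, Usp17lb and Usp17le were unique, while 24.4% of the Usp17lc and 30.4% of the Usp17ld windows were still shared between those copies.

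**Figure D1:**
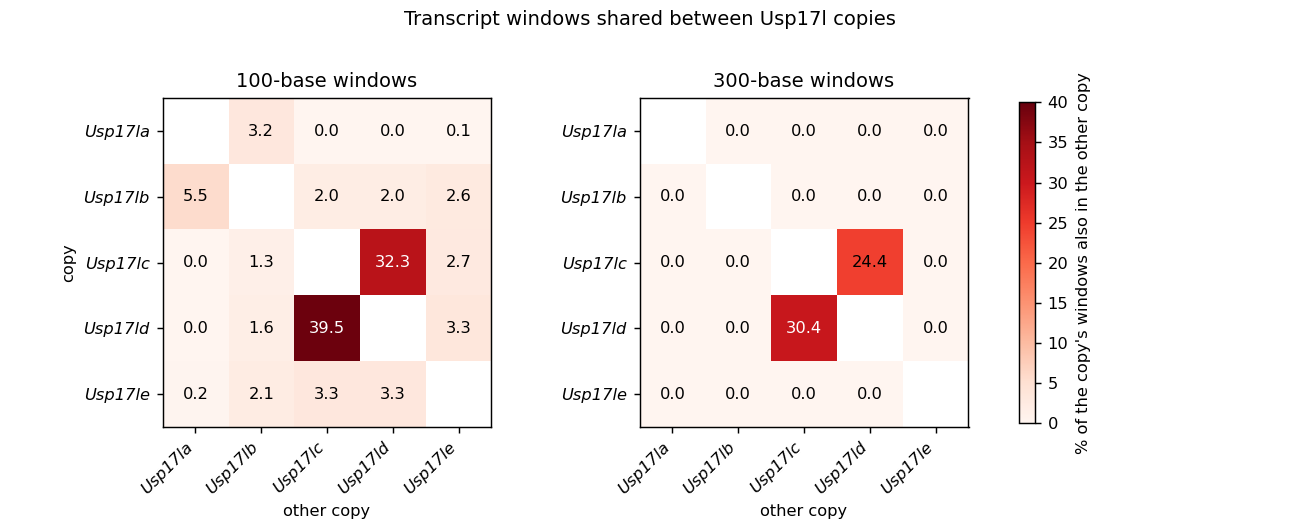
Share of the 100-base (left) and 300-base (right) transcript windows of each copy (rows) that also occur in another copy (columns), in percent of the row's windows. At 300 bases sharing is left between Usp17lc and Usp17ld alone, at 24.4% and 30.4%.

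The promoters show the same kinship. The RefSeq table for GRCm38.p6 matched 4 of the 5 copies, with 250 bases before and 50 after the RefSeq gene start, given here in the direction of transcription. The windows are chr7:104856766-104857065 (plus strand) for Usp17la, chr7:104842534-104842833 (minus strand) for Usp17lb, chr7:103416446-103416745 (plus strand) for Usp17lc and chr7:103252456-103252755 (minus strand) for Usp17ld. The Usp17lc window lies inside the GENCODE gene, which starts at 103415072. It is placed on a second annotated transcript of Usp17lc, whose first exon runs from 103416696 to 103416745, so it is not upstream of the GENCODE gene start. Capitals mark the letters TATAAA, which are the core of a TATA box, the element that places the start of transcription at many regulated genes, and the letters CACACCC, which are a CACCC box, an element bound by zinc-finger factors of the Klf and Sp families. Both were searched on both strands, as was the E-box with the letters CACGTG.
Usp17la: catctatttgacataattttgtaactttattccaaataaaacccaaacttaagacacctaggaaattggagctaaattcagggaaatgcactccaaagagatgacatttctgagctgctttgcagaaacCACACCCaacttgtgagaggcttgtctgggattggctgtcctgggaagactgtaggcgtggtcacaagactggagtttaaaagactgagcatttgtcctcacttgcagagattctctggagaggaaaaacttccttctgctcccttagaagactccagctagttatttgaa
Usp17lb: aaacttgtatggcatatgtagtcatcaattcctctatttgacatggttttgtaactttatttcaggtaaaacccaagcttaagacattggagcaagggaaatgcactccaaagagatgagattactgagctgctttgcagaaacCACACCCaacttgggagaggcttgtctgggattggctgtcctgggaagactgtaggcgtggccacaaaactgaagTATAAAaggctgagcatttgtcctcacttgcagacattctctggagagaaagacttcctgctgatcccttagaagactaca
Usp17lc: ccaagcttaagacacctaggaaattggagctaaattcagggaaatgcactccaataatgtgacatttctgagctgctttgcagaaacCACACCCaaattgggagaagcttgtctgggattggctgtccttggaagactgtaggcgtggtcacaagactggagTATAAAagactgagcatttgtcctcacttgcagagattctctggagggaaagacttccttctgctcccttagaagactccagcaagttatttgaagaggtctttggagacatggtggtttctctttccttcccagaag
Usp17ld: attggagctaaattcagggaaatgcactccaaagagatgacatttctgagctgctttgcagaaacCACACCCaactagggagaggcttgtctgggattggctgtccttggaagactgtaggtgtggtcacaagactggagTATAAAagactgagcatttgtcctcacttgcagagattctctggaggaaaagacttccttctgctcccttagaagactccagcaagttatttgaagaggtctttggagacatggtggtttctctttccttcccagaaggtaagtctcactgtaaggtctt

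The TATA core was found in 3 of the 4 promoters. It started 31 bases before the RefSeq gene start in Usp17lb, 88 in Usp17lc and 110 in Usp17ld. In Usp17la the aligned letters 46 bases before the start carry the substitution A2T, counted from the first base of that core. The CACCC box was found in all 4 promoters, and in each it began 75 bases before the TATA position, so these elements kept their spacing while the annotated starts did not line up with them. In GENCODE all 28 bases of the first Usp17ld exon are coding, as are 28 of the 50 bases of the Usp17lc exon in this window. The annotated starts of Usp17lc and Usp17ld thus lie close to or at the start codon. Their distances to the TATA core may not be distances to where transcription starts. Among all 32851 promoters of the table, 13.6% hold the TATA core and 7.95% hold the CACCC box on either strand. The E-box, which 7.15% of promoters hold, was in none of these 4 windows. Aligned bases of the promoters were from 89.5% (Usp17lb with Usp17lc) to 96.8% (Usp17lc with Usp17ld) identical. A match is a description of the letters and says nothing of whether a factor binds there.

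Reads per library were then set out for each copy. Raw counts of all genes summed to between 18067562 and 19077885 per library, and the expected counts from RSEM, which apportions reads among transcripts by their likelihood, to between 15738304.6 and 16682829.0. Mitochondrial RNA made up 5.48% and 5.72% of the counts in the libraries numbered 1 and 2.43% and 2.82% in those numbered 2, with 1 of each number in each group. The 7 pluripotent stem cell markers were present in all libraries, with a summed TPM, the transcript abundance that RSEM scales to transcript length and library size, of 2784 and 3053 in control and 3202 and 3203 in lactate, and none was called, with 3 higher at an unadjusted p under 0.05 in edgeR (11.7% of all genes were, and 0.552% were called higher). The 8 feeder fibroblast markers summed to 139 and 197 TPM in control and 154 and 185 in lactate, with 4 higher, 4 lower and none called (1 was lower at an unadjusted p under 0.05, as were 11.4% of all genes), so the feeder sum overlapped between the groups.

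Usp17l reads were few, and each copy had more of them in both lactate libraries than in either control library. Summed over the 5 copies, raw counts were 51 and 42 in control and 191 and 153 in lactate, and RSEM expected counts were 37 and 38 against 162 and 122. Divided by the library totals, the summed raw counts were 3.66 times higher in lactate and the summed expected counts 3.76 times higher. In TPM the sum rose from 2.03 and 1.95 to 8.38 and 6.14, with means of 1.99 ± 0.0566 and 7.26 ± 1.58 (SD, n = 2). The groups did not overlap in any of the 3 measures. By raw counts scaled in edgeR, both lactate libraries also lay above both control libraries in 27% of all genes tested. That share was not computed for RSEM expected counts or TPM. In bulk libraries more cells with these transcripts and more transcripts per cell cannot be told apart.

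**Figure D2:**
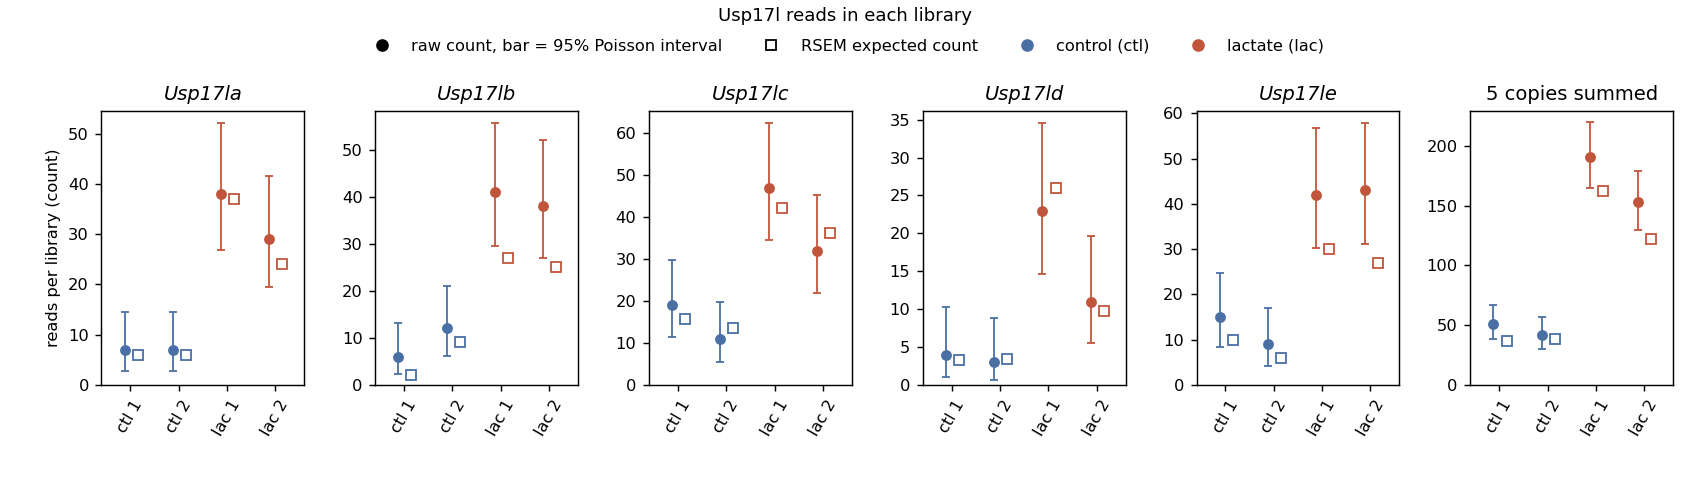
Raw counts (filled circles, with 95% Poisson intervals that cover counting error only) and RSEM expected counts (open squares) of each copy and of their sum, in reads per library, for the 2 control (ctl) and 2 lactate (lac) libraries. The summed raw counts are 51 and 42 in control and 191 and 153 in lactate.

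Usp17la had 7 and 7 raw reads in control and 38 and 29 in lactate, with 6, 6, 37 and 24 by RSEM. Usp17lb had 6 and 12 raw reads in control and 41 and 38 in lactate, with 2, 9, 27 and 25 by RSEM. Usp17le had 15 and 9 raw reads in control and 42 and 43 in lactate, with 10, 6, 30 and 27 by RSEM. For these 3 copies every RSEM count was a whole number. Their lactate libraries lay above their control libraries by either counting, as did those of 27% of all genes by scaled raw counts. The least certain of these copies was Usp17lb in control, where the RSEM counts of the 2 libraries were 2 and 9.

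Usp17lc had 19 and 11 raw reads in control and 47 and 32 in lactate, with 15.66, 13.54, 42.03 and 36.21 by RSEM. Usp17ld had 4 and 3 raw reads in control and 23 and 11 in lactate, with 3.34, 3.46, 25.97 and 9.79 by RSEM. These were the only copies with fractional RSEM counts, in all 4 libraries, and they are the pair with the long identical run shown above. Their sum was whole in each library, at 19 and 17 in control and 68 and 46 in lactate, where the raw counts of the pair were 23, 14, 70 and 43. The split of this pair into its copies is therefore less certain than its sum.

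The raw count and the RSEM count differed by copy. Over the 4 libraries the raw count was 1.11 times the expected count for Usp17la, 1.54 times for Usp17lb and 1.49 times for Usp17le, but 1.01 times for Usp17lc and 0.963 times for Usp17ld. For the family sum the ratio was 1.22. Among the 16748 genes with at least 20 reads by both countings the median ratio was 1.20, and the 5th to 95th percentiles ran from 0.888 to 3.11, so all 5 copies lay within the usual range. The cause of the difference between copies was not tested.

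The makeup of the family depended on the counting. In control, Usp17lc took 37.3% and 26.2% of the summed raw reads and 42.3% and 35.6% of the RSEM reads, the largest mean share by both. In lactate its shares were 24.6% and 20.9% by raw counts, no longer the largest mean share, and 25.9% and 29.7% by RSEM, where it stayed the largest. Usp17le took 29.4% and 21.4% of the raw reads in control and 22.0% and 28.1% in lactate, with no separation between the groups. Usp17ld had the smallest share of the raw reads in every library, from 7.14% to 12.04%. The lower share of Usp17lc in lactate was seen in both libraries by both countings, on 11 to 19 raw control reads.

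**Figure D3:**
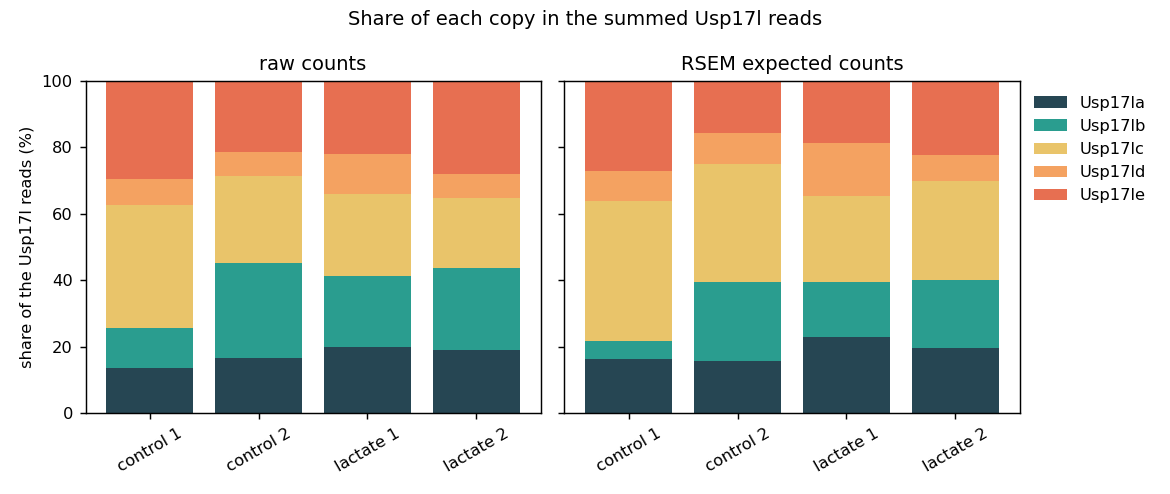
Share of each copy in the summed Usp17l reads of each library, in percent, by raw counts (left) and RSEM expected counts (right). Usp17lc falls from 37.3% and 26.2% in control to 24.6% and 20.9% in lactate by raw counts.

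Levels of the copies can be ordered only per transcript length. In control the mean TPM (± SD, n = 2) was 0.765 ± 0.177 for Usp17lc, 0.44 ± 0.184 for Usp17le, 0.39 ± 0.325 for Usp17lb, 0.22 ± 0.0141 for Usp17la and 0.175 ± 0.00707 for Usp17ld. The Usp17lb libraries, at 0.16 and 0.62 TPM, spanned all of the others but those of Usp17lc, so its place against Usp17le, Usp17la and Usp17ld is within the spread, while the libraries of the other copies did not overlap. With so few reads this does not settle their order. In control 1 the 95% Poisson interval of the raw count ran from 2.81 to 14.4 for Usp17la and from 1.09 to 10.2 for Usp17ld. In lactate the order was Usp17lb at 1.955 ± 0.219, Usp17lc at 1.735 ± 0.163, Usp17le at 1.54 ± 0.198, Usp17la at 1.11 ± 0.382 and Usp17ld at 0.92 ± 0.622. There the libraries of Usp17lb and Usp17lc overlapped, as did those of Usp17lc and Usp17le and those of Usp17la and Usp17ld. The ratio of lactate to control means in TPM was 5.26 for Usp17ld, 5.05 for Usp17la, 5.01 for Usp17lb, 3.50 for Usp17le and 2.27 for Usp17lc.

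Lactate was compared with control by the quasi-likelihood test of edgeR on raw counts of 18661 genes, with Benjamini-Hochberg adjustment over all of them and a call at an adjusted p under 0.05 with more than a 2-fold change. Every copy was higher in lactate, and none passed that threshold. Usp17la was higher by 2.16 ± 0.37 on the log2 scale (± SE), with an adjusted p of 0.0539 in edgeR. For Usp17lb the difference was 2.05 ± 0.36, with an adjusted p of 0.0563 in edgeR, and for Usp17le 1.73 ± 0.35, with 0.0656. For Usp17ld it was 2.17 ± 0.60, with an adjusted p of 0.113 in edgeR, and for Usp17lc 1.31 ± 0.41, with 0.137. Across all genes 0.552% were called higher.

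At an unadjusted p under 0.05, which 11.7% of all genes reached on the higher side, 5 of 5 copies were higher in edgeR. A rise of more than 2-fold, seen in 4.32% of genes, was also found in 5 of 5, as were both lactate libraries above both controls, seen in 27% of genes. These counts are descriptions and not support for a change of the family, because the copies were chosen with their values known and the filter on low counts favoured a rise. Usp17la and Usp17ld reached its minimum in the 2 lactate libraries alone and Usp17lb and Usp17le in 1 control library beside them, so only Usp17lc would have passed on its control libraries. Usp17la was also among the genes that the study chose from these libraries to draw. Whether the copies changed by different amounts was not tested.

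**Figure D4:**
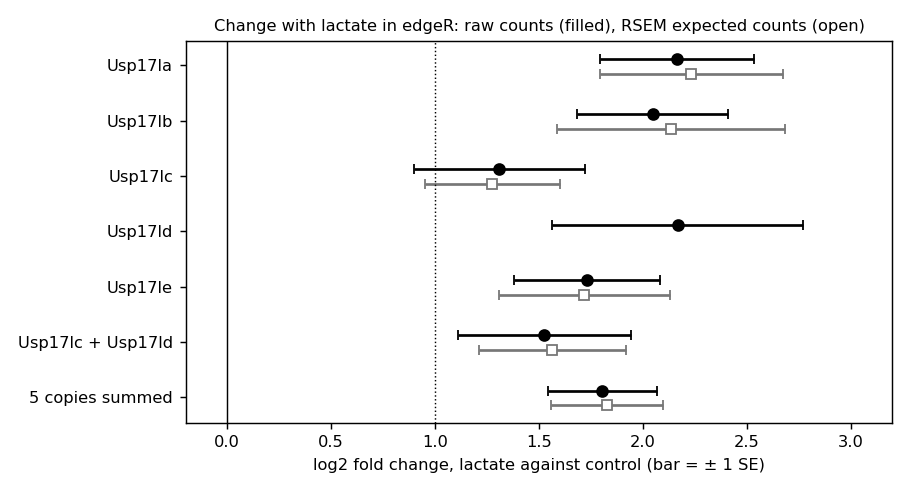
Log2 fold change of lactate against control in edgeR for each copy, for Usp17lc and Usp17ld together and for the sum of all 5, from raw counts (filled) and RSEM expected counts (open), with bars of ± 1 SE. The solid line is no change and the dotted line a 2-fold rise. Usp17ld alone has no open point, because it was not tested on RSEM expected counts. The raw-count estimates run from 1.31 for Usp17lc to 2.17 for Usp17ld.

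The calls of single copies differed between fits. DESeq2 on the same counts, which called 0.577% of genes higher, called none of the copies, with adjusted p of 0.0689 for Usp17la, 0.0591 for Usp17lb, 0.106 for Usp17le and 0.293 for Usp17lc and none given for Usp17ld. The DESeq2 shares here and below are of all genes with a p, also those without an adjusted p, which could not be called. Leaving out 1 library left 1 in its group, which edgeR then assumed to vary like the other group. Without lactate replicate 2 all 5 copies were called (2.59% of genes were), and without lactate replicate 1 Usp17la, Usp17lb and Usp17le were (1.91% of genes). Without control replicate 2 only Usp17lb was called (0.855% of genes), and without control replicate 1 no copy was (0.229%). The lowest and highest adjusted p in edgeR over these leave-one-out fits were 0.00104 and 0.132 for Usp17la, and 0.0118 and 0.402 for Usp17lc. On RSEM expected counts edgeR tested 4 copies and called none (0.173% of genes), while DESeq2 gave an adjusted p for Usp17lc alone and did not call it (0.574% of genes). With the replicate number as a block, edgeR called all 5 and 4.08% of genes. Without the filter on low counts, which raised the share of genes called higher to 1.46%, all 5 copies were called as well.

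Summing copies avoids the question of which copy a read came from. It does not settle whether the raw counts dropped reads shared by copies or counted them, which is uncertain. As 1 feature in the same edgeR fit, the 5 copies together were higher in lactate by 1.80 ± 0.26 on the log2 scale, or 3.49-fold, from 2.58 ± 0.520 to 9.02 ± 1.78 CPM (counts scaled to library size, mean ± SD, n = 2). Usp17lc and Usp17ld together were higher by 1.53 ± 0.41 on raw counts and by 1.56 ± 0.35 on RSEM expected counts, while their separate raw estimates were 1.31 and 2.17. No p is given for a sum, because its members were chosen with the results known. The sum of 5 changed little with the counting, at 1.83 on RSEM expected counts. Without lactate replicate 1 it was 1.56, and without control replicate 1 it was 2.01.

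The Usp17l copies were compared with 51 other USP genes, a list written from general knowledge that need not hold the whole class. Among these the copies were the genes of lowest level in control. Of 56 USP genes, counting 51 others, the copies held the last 5 places by mean TPM in control, below Usp43 at 1.04. In lactate Usp17lb, Usp17lc and Usp17le ranked 50, 51 and 52, above Usp18 and Usp43, and Usp17la and Usp17ld stayed last. All 51 other USP genes of the list were tested. Of these, 33 were higher and 18 lower, with a median log2 difference of 0.07 where that of all genes was 0.01, and none was called higher (0.552% of genes were) or rose more than 2-fold. At an unadjusted p under 0.05 in edgeR 4 were higher and 4 lower, where 11.7% of all genes were higher and 11.4% lower, and DESeq2 called 0 higher (0.577% of all genes) and 2 lower (0.51%).

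The listed USP genes with the largest rises were Usp40 at 0.59 (adjusted p = 0.0871 in edgeR), Usp11 at 0.55 (0.0775) and Usp29 at 0.54 (0.248) on the log2 scale. Those called lower were Usp18 and Usp21, where 0.348% of genes were called lower. Usp18, which removes the ubiquitin-like protein ISG15 and is induced by interferon, had 100 and 122 raw reads in control and 25 and 35 in lactate, and fell by 1.96 ± 0.25 on the log2 scale (adjusted p = 0.0406 in edgeR). Usp21, a deubiquitinase of histone H2A among other proteins, had 914 and 945 reads in control and 454 and 509 in lactate, and fell by 1.03 ± 0.14 (adjusted p = 0.0431 in edgeR). Usp5, which takes apart free ubiquitin chains, was next at -0.55 (adjusted p = 0.156 in edgeR).

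**Figure D5:**
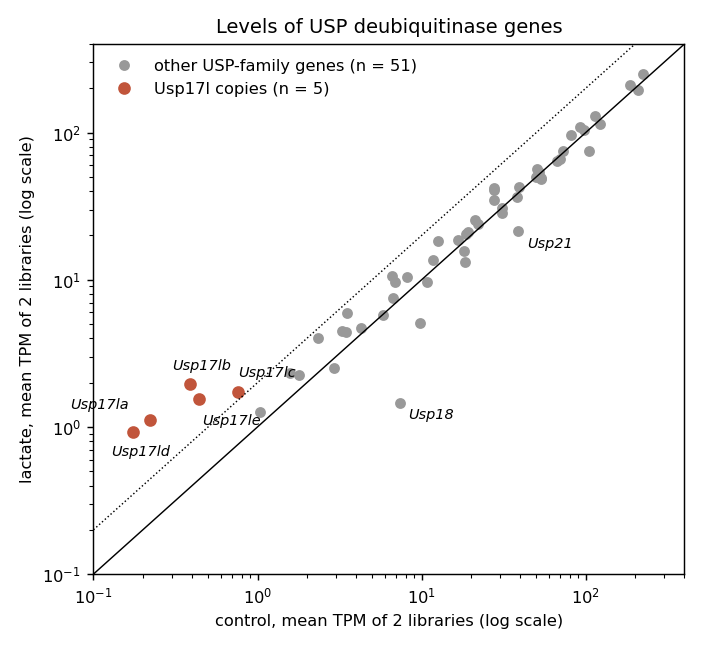
Mean TPM of 2 libraries in control (x, log scale) and lactate (y, log scale) for 51 other USP genes (grey) and the 5 Usp17l copies (red). The solid line is no change and the dotted line a 2-fold rise. The 5 copies lie above the dotted line at the low end, and Usp18, at 7.345 TPM in control and 1.45 in lactate, lies farthest below the solid one.

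Genes known from two-cell embryos and two-cell-like ESCs were also compared. Of a list of 30 such genes, 17 were tested and all 17 had a higher estimate in lactate, with a median log2 difference of 1.41 and a range of 0.92 to 3.41. Of the 17, 15 had an estimate over 2-fold (4.32% of all genes did) and 16 were higher at an unadjusted p under 0.05 in edgeR (11.7% of all genes). The filter on low counts favoured a rise here too, since Gm2022, Nat8f2 and Zscan4b, 3 of the 17, did not reach its minimum in both control libraries. DESeq2 called 9 of the list higher (0.577% of all genes) and edgeR 2. Those that edgeR called were Zscan4-ps2, a pseudogene of the Zscan4 family, with 29, 33, 122 and 100 raw reads in control 1, control 2, lactate 1 and lactate 2 and a rise of 1.76 ± 0.25 (adjusted p = 0.0467 in edgeR), and Gm8300, with 22, 24, 76 and 85 reads and a rise of 1.72 ± 0.24 (adjusted p = 0.0467). The largest differences were in Gm2022 at 3.41 (1, 1, 12 and 13 reads, adjusted p = 0.0526 in edgeR) and Nat8f2 at 2.05 (7, 7, 27 and 35 reads, adjusted p = 0.0526). The Zscan4 genes are also a family of similar copies, and how their reads were split was not tested. Many of the list were chosen by the study on these libraries, so the count is not independent evidence of the direction.

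For the other 13 genes of the list reads were too few for the test. Summed by group, 10 of the 13 had more reads in lactate, 1 had fewer and 2 had as many. Some of these differences were of a few reads, and the matching share of all genes with so few reads was not computed. The count is therefore not evidence of a rise. Of those named here, which were chosen after their values were seen, Duxf3, a copy of the Dux transcription factor that activates two-cell genes, had 3 and 2 reads in control and 4 and 5 in lactate. Zfp352, a zinc-finger gene of the two-cell embryo, had 4 and 7 against 9 and 12, and Tcstv1 had 2 and 1 in each group. Differences of this size in Duxf3 were not detectable at this depth.

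Genes whose proteins have been described as substrates of the human relative DUB3 or of USP17 formed another list of 6, and none was called in edgeR or DESeq2, and 1 was lower at an unadjusted p under 0.05 in edgeR, as were 11.4% of all genes. That gene was Gmnn, which encodes the replication inhibitor geminin, with 1392 and 1490 reads in control and 783 and 1085 in lactate and a log2 difference of -0.71 (adjusted p = 0.0812 in edgeR). The values of 4 others were 0.23 for Rce1, a protease of prenylated proteins, -0.09 for Cdc25a, a cell-cycle phosphatase, -0.29 for Suds3, a part of the Sin3 corepressor, and -0.31 for Snai1, a transcriptional repressor. These are transcript levels, and protein levels were not measured.

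Annotated neighbours were nearly silent. Of 45 genes within 100 kb of a copy, 34 were olfactory receptor genes with no count in any library, and 4 had a count at all. Only Gm5900, a processed pseudogene 87.25 kb from Usp17la, had 20 or more, with 60 and 50 reads in control and 76 and 55 in lactate, so that 1 lactate library lay below 1 control library. Gm4887, another processed pseudogene, had 4, 0, 2 and 3 reads, and the miRNA genes Gm25171 and Gm25774 had 0, 0, 2 and 2 and 0, 0, 0 and 2. Gm25774 lies within Usp17lc, and its reads cannot be told apart from those of the host transcript.

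The transcripts whose pattern over the 4 libraries lay closest to that of the family sum were found by the Euclidean distance between log2 CPM values centred on their means. They were A530040E14Rik at a distance of 0.124 (3, 2, 14 and 12 reads), Gm43314 at 0.129 (67, 62, 266 and 223), Arl14ep at 0.154 (760, 668, 2840 and 2571), Nckap5 at 0.164 (7, 6, 28 and 24) and Slc12a3 at 0.168 (3, 2, 14 and 13). The family sum itself ranged over 2.16 log2 units. Over so few libraries a like shape is common, since 1565 genes had a Pearson r over 0.95 with the sum across the 4 libraries. That measure ignores the size of a change, and how common such small distances are was not computed. Arl14ep, which had the most reads of the 5, rose by 1.84 on the log2 scale (adjusted p = 0.0313 in edgeR). That this is close to the 1.80 of the family follows from its choice by pattern.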

How the data were processed

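Reads of 4 libraries were trimmed by the authors with cutadapt 1.16 and mapped with STAR to mm10 and GENCODE M23. The deposited raw counts are whole reads per gene, which the study's methods credit to STAR's gene counting in exons, beside 1153 families of transposable elements that were left out here. That setting gives no such families, so the counter behind the table is uncertain, and with it whether reads shared by similar copies were dropped or counted. The strand setting is not given in the sources used here. For each library the authors also deposited RSEM expected counts, TPM and effective lengths in bases.

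The raw counts were tested by edgeR 4.0.16 under R 4.3.3 (filterByExpr, TMM factors of 0.959 to 1.04, glmQLFit in its legacy form), fitted over all genes, with no covariate. Standard errors were taken as the absolute log2 fold change over the root of the F statistic. Common biological variation was 15.9%. For the sums, the rows of the copies were replaced by 1 row. RSEM expected counts were rounded for count tests. With 2 libraries per group an exact permutation test cannot give a p below 0.3333. Alternatives used DESeq2 1.42.0, limma 3.58.1 on log2(TPM + 1) and log2(TPM + 0.1), other scalings and filters, and fits without each library. Some of the fits were also run on simulated counts, with a single spread for all genes and no effect of the replicate number. That run does not show how well the fits hold for these libraries. Positions come from GENCODE M21, and coding identity was aligned in place of proteins, which were not used here. Usp17le promoter sequence was not used here. Windows were matched to annotated transcripts.

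The members and lists were chosen with earlier results of these data known. Genes named are all members, the called genes and the 3 largest rises and falls of the two-cell, USP and substrate lists that pass the filter, the 5 nearest patterns, and neighbours within 100 kb with a count. Values of 1 gene of the substrate list are not reported here.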

Additional observations from a re-analysis of the deposited data

How the results depend on the processing

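The log2 difference of the summed Usp17l counts kept its sign in all 18 alternatives, from 1.45 to 2.01. Of these, 1 changed only the threshold for a call and kept the reported fit, so its sign could not change. The difference moved by more than the pooled SD of the libraries (0.29) in 1, limma on log2(TPM + 1), at 1.45, a scale that shrinks differences of low genes. Leaving out 1 library gave 1.56 to 2.01. No copy reversed under any alternative in which it was fitted anew.

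Of the 5 copies, 0 were called in the reported edgeR fit, 0 to 5 without 1 library, and 5 without the filter on low counts. Beside the 103 genes called higher and 65 called lower, DESeq2 called 190 and 168, edgeR without the filter 482 and 325, edgeR on RSEM expected counts 27 and 17, and edgeR without 1 library 45 to 502 and 39 to 367. Scaling to library totals alone gave 40 called lower, and DESeq2 on RSEM expected counts 137. Limma called 0 and 0 on log2(TPM + 1) and 0 and 2 on log2(TPM + 0.1). Only Usp17lc had 10 reads in every library, and Usp17ld was not tested on RSEM expected counts in edgeR. Why fits without a library called more genes was not tested.

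Libraries with the same number share only that number in the labels. Their deviations from the group means correlated at 0.561. With a replicate block edgeR called 761 genes higher and 395 lower, and all 5 copies, where 4.08% of genes were called higher, and the summed counts differed by 1.80. Each group had 2 libraries, and each copy 3 to 47 raw reads per library.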
